A study of Mus musculus with 6 samples.

Results

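Nuclear lamina and envelope genes were examined in mouse small pre-B cells. They are 10 genes, found in the table by symbol: the lamins Lmnb1, Lmnb2 and Lmna, the LEM-domain proteins Tmpo, Emd and Lemd3, the chromatin bridge Banf1, the lamin B receptor Lbr, and the SUN proteins Sun1 and Sun2. All 10 are among the 49997 gene symbols of the deposited count table, and 8 of them had enough counts to be tested. The list was chosen by the values of Tmpo, whose CPM was known to differ between WT and ΔrsCBE, and the other members were added by function. The genotype differences of the members are therefore given as a description, and they support no further statement.

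Small pre-B cells are bone marrow precursors that have mostly stopped dividing and rearrange their immunoglobulin light chain genes. The cells came from C57BL/6 mice aged 6 to 12 weeks, either wild type (WT) or of the genotype labelled rsCBE, ΔrsCBE in the series design, with 3 libraries of each. The labels do not define the altered allele, and the series title concerns chromatin topology mediated by CTCF and receptor editing. Both groups were sorted from bone marrow by flow cytometry, and RNA depleted of ribosomal RNA was made into libraries with a kit that keeps strand. The labels do not say whether replicates came from separate animals, so p-values measure the spread between these libraries, which may be technical.

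The nuclear lamina is a meshwork of lamin filaments under the inner nuclear membrane. LEM-domain proteins of that membrane bind chromatin through the small DNA-binding protein encoded by Banf1, Lbr binds lamin B and heterochromatin protein 1, and SUN proteins join the lamina to nesprins in the outer membrane, which link to the cytoskeleton. B-type lamins are made in nearly all cells, whereas A-type lamins are scarce in many blood cells. The envelope is taken apart and rebuilt at each mitosis, and transcripts of Lmnb1 and Tmpo are known to be more abundant in dividing than in resting cells.

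Total counts ranged from 428106 to 1300805 per library, so 3 counts correspond to 2.38 to 7.36 CPM (reads of a gene per 1e+06 reads, after TMM scaling for library composition). All 10 markers of B-cell precursors were tested, and 0 of them differed at an adjusted p-value under 0.05. Their summed level was 10009 to 11939 CPM in the WT libraries and 10992 to 11877 CPM in ΔrsCBE. Among erythroid markers, Hba-a1 had 1 count over the 6 libraries and Hba-a2, Hbb-bs, Hbb-bt, Klf1 and Car1 had 0. T and NK cell markers summed to at most 2.53 CPM, with Cd3e, Cd3g, Cd8a, Nkg7, Klrb1c and Gzma at 0. A count near 0 here need not mean an absent transcript: Gapdh and Ppia, which nearly all cells use, had 10 and 7 counts. Stromal and endothelial markers other than Pecam1 summed to 4.87 to 15.7 CPM, with Lepr and Kitl at 0. Pecam1 itself had 292 to 344 CPM. Itgam had 47.2 to 83.4 CPM and Sdc1 50.8 to 82.7 CPM. Myeloid markers other than Itgam summed to at most 8.84 CPM, with Elane, S100a8 and Prtn3 at 0. Plasma cell markers other than Sdc1 summed to 45.9 to 51.9 CPM in the WT libraries and 59.4 to 67.8 CPM in ΔrsCBE. Xbp1, at 36.4 to 64.2 CPM, was the largest part of that sum, and Prdm1 had 3.63 to 11.4 CPM. Jchain had 1 count over the 6 libraries and Tnfrsf17 had 0. Of the 2 plasma cell markers that were tested, 0 differed at an adjusted p-value under 0.05. Xist, which is made from the inactive X chromosome of female cells, was counted 1603 times in ΔrsCBE replicate 2, 1430 times in replicate 3, and no more than 1 time in any other library. In the WT libraries its count was thus near 0 throughout, and genotype and Xist status can be told apart only through ΔrsCBE replicate 1.

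Among the members, Tmpo and Lmnb1 were lower in ΔrsCBE, and the other 6 tested genes were not past the threshold. Lmnb2 and Banf1 had fitted differences nearly as large but far fewer counts, and Lbr, Sun1, Sun2 and Lemd3 had fitted differences closer to 0. Of the 8 tested members, 2 passed a threshold of 0.05 on the Benjamini-Hochberg adjusted p-value (edgeR quasi-likelihood fit of 7792 genes), both lower and 0 higher. Of all tested genes, 1.69% passed it, 1.49% with lower and 0.205% with higher values in ΔrsCBE. Because the contrast was used to choose the list, nothing is read from this count. The median log2 fold change was -0.43 over the 8 members and 0.01 over all tested genes.

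**Figure D1:**
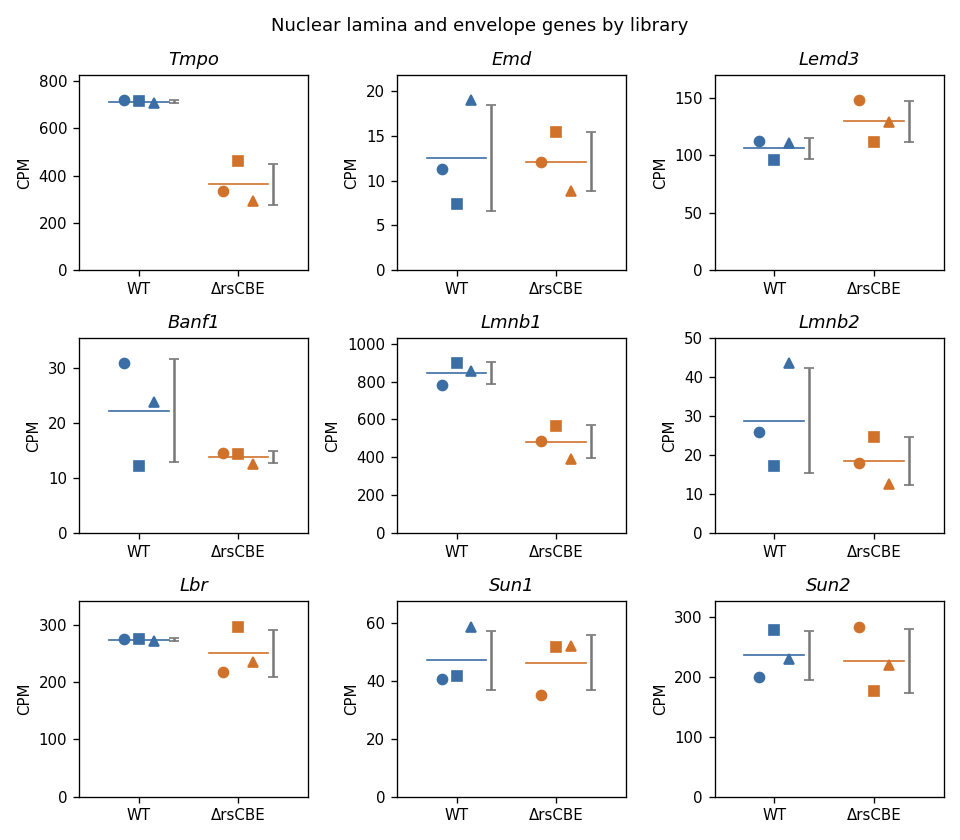
CPM (vertical axis, from 0) of 9 members in WT (blue) and ΔrsCBE (orange) libraries, with replicates 1, 2 and 3 as circle, square and triangle, the mean as a line and the SD as a grey bar. The groups stand apart for Tmpo and Lmnb1 and overlap for the other 7 genes, and Lmna, listed at 0 in each library, is not drawn.

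The LEM-domain proteins were taken first. Tmpo (minus strand of chromosome 10, 91147571 to 91181315, positions here and later from GENCODE M21, build GRCm38) encodes thymopoietin, also called lamina-associated polypeptide 2, whose membrane-bound forms tether lamin B and chromatin and whose soluble form binds A-type lamins. In WT its level was 719, 714 and 707 CPM, in the order of the replicate numbers, and in ΔrsCBE 335, 459.9 and 294 CPM. The WT libraries lay close together, each ΔrsCBE library lay below all of them, and ΔrsCBE replicate 2 was the nearest to WT. The means were 713 ± 5.79 and 363 ± 86.3 CPM (SD, n = 3), or 1.96-fold lower in ΔrsCBE (log2 fold change -0.97, SE 0.13, adjusted p-value by edgeR 9.03e-05). The spread within WT was below counting noise, at a chi-square per degree of freedom of 0.0405, where a value near 1 is expected from counting alone. In ΔrsCBE it was 18.1, so the libraries of that genotype differed among themselves in Tmpo beyond counting noise. In bulk RNA, fewer cells with a transcript and less of the transcript per cell cannot be told apart, and a count per gene does not separate the membrane-bound from the soluble form.

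RefSeq lists 2 start sites for Tmpo on GRCm38.p6, and the windows from 250 bases before to 50 bases after each are printed because Tmpo is the member the list was built on. The windows of Lbr and Sun2 are set beside them because they are the other searched member windows with a match to TTTGAA. The libraries of both genes overlap between genotypes. Capitals mark matches, on either strand, to the motifs CCAAT (the CCAAT box), TTTGAA (1 form of the cell cycle genes homology region, abbreviated CHR) and TTTCCCGC, TTTCGCGC, TTTGCCGC or TTTGGCGC (forms of the E2F site). The motif TTCGAA, another form of the CHR, was also searched. A match in the other strand appears reversed and complemented, so TTCAAA marks TTTGAA there.
Tmpo start 1, chr10:91171570-91171869, minus strand: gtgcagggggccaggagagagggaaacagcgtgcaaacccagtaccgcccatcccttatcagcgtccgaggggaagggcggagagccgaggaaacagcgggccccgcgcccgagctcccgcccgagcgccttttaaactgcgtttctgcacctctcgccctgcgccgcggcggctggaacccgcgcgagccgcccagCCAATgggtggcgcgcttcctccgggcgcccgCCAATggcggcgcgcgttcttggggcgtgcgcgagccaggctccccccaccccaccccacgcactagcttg
Tmpo start 2, chr10:91170501-91170800, minus strand: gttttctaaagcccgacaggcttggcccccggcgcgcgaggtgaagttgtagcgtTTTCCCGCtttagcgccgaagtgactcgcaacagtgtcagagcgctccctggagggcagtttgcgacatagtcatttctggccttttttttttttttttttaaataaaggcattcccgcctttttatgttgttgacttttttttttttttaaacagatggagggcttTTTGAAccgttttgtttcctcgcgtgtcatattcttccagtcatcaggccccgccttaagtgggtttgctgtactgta
Lbr, chr1:181842352-181842651, minus strand: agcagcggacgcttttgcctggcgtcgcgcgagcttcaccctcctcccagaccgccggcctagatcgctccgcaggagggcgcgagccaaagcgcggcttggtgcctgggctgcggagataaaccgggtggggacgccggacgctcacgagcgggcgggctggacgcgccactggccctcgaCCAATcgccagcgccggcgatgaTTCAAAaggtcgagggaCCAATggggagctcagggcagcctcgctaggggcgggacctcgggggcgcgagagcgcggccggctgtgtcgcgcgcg
Sun2, chr15:79742487-79742786, minus strand: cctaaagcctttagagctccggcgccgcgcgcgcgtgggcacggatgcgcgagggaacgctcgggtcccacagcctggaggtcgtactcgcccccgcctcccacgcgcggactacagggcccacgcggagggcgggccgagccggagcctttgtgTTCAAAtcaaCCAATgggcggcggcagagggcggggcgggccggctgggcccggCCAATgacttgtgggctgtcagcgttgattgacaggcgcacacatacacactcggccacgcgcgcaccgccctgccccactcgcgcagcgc

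The first Tmpo window held 2 CCAAT boxes, beginning 53 and 21 bases before the start, and no match to the other motifs. The second held an E2F form at 195 bases and TTTGAA at 28 bases before its start. Lbr and Sun2 each held TTTGAA and 2 CCAAT boxes, and neither held an E2F form. Over the 14 windows found for 9 members, CCAAT was present in 9 (64.3%, against 37.4% of all 32851 RefSeq windows), TTTGAA in 3 (21.4%, against 17.9%), an E2F form in 2 (14.3%, against 2.26%) and TTCGAA in 0 (against 1.56%). The windows with an E2F form belonged to Tmpo and Banf1. The windows of Emd, Lemd3, Banf1, Lmnb2, Lmna and Sun1 held no TTTGAA. No window of Lmnb1 was searched, so nothing is said of its motifs. The matches are of letters only, and no binding was measured.

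Lemd3 (chromosome 10, 120923413 to 120979332, minus strand), an inner membrane protein also known as MAN1 that restrains SMAD signalling, was the 1 tested member with a fold change above 0. It had 112, 95.6 and 111 CPM in the WT libraries and 148, 112 and 129 CPM in ΔrsCBE. The lowest ΔrsCBE library lay within the WT range, so the groups overlapped. The means were 106 ± 9.12 and 129 ± 18.03 CPM (SD, n = 3), at a fitted log2 fold change of 0.26, 95% interval -0.07 to 0.60 (edgeR adjusted p-value 0.639). In RefSeq it overlaps the noncoding genes Gm50589 and Gm35235, which had 109 and 2 counts over the 6 libraries. Whether the counting used the strand is not given in the sources used here.

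Emd (chromosome X, 74254687 to 74261548, plus strand) encodes emerin, the LEM protein whose loss causes a form of muscular dystrophy. It had 7, 3 and 24 counts in the WT libraries and 10, 15 and 7 in the ΔrsCBE libraries, too few to be tested. These amount to 11.4, 7.36 and 19.0 CPM in the WT libraries and 12.1, 15.5 and 8.84 CPM in ΔrsCBE, with means of 12.6 ± 5.92 and 12.1 ± 3.33 CPM (SD, n = 3). The groups overlapped fully, and a difference in Emd was not detectable at this depth. Emd is X-linked, and the libraries with Xist counts held both the highest and the lowest ΔrsCBE value.

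Banf1 (chromosome 19, 5364638 to 5367168, minus strand) encodes the barrier-to-autointegration factor, which binds DNA and the LEM domain. It was counted 19, 5 and 30 times in the WT libraries and 12, 14 and 10 times in the ΔrsCBE libraries, or 30.8, 12.3 and 23.8 CPM against 14.5, 14.5 and 12.6 CPM. WT replicate 2, the shallowest library, lay below all ΔrsCBE libraries while the other WT libraries lay above them. The means were 22.3 ± 9.37 and 13.9 ± 1.08 CPM (SD, n = 3), at a fitted log2 fold change of -0.74, 95% interval -1.48 to 0.00 (edgeR adjusted p-value 0.491). It overlaps Eif1ad on the opposite strand, which had 418 counts, and its count is uncertain unless the counting kept the strands apart. In GENCODE M21, exons of Tmpo, Lbr, Sun1 and Sun2 also overlap genes of the opposite strand. These are Gm26765, Dnah14, 4930520M14Rik and Gm16575 in that order, and the same limit applies to the counts of those members. Exons of Emd and Lbr overlap genes of their own strand, Gm14686 and Gm26004, which keeping the strands apart would not separate.

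The lamins differed widely in level. Lmnb1 (chromosome 18) encodes the B-type lamin that stays attached to the membrane through its farnesyl tail. It had 782, 895 and 855 CPM in the WT libraries and 489, 566 and 394 CPM in ΔrsCBE. The groups did not overlap, and ΔrsCBE replicate 2 was again the nearest to WT. Its means were 844 ± 57.3 and 483 ± 86.3 CPM (SD, n = 3), or 1.74-fold lower in ΔrsCBE (log2 fold change -0.80, SE 0.12, adjusted p-value by edgeR 0.000182). Tmpo and Lmnb1 were the only members whose groups did not overlap, which was also the case for 8.92% of all tested genes in the lower direction.

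Lmnb2 (chromosome 10, 80901203 to 80918245, minus strand), the other B-type lamin, had 16, 7 and 55 counts in WT and 15, 24 and 10 in ΔrsCBE. As CPM this was 26.0, 17.2 and 43.6 in WT against 18.2, 24.8 and 12.6 in ΔrsCBE, with overlapping groups. The means were 28.9 ± 13.4 and 18.5 ± 6.10 CPM (SD, n = 3). On the log2 scale the fitted difference was -0.76, with a 95% interval from -1.47 to -0.05, which did not pass (adjusted p-value by edgeR 0.426). Its WT libraries differed beyond counting noise, with 3.97 for the chi-square per degree of freedom, and without WT replicate 3 the log2 fold change was -0.24 (edgeR adjusted p-value 0.941).

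Lmnb2 took a small share of the reads of the B-type lamins in each library. In the WT libraries the share amounted to 3.21% (95% Wilson interval 1.99% to 5.15%), 1.88% (0.914% to 3.83%) and 4.85% (3.74% to 6.25%). In the ΔrsCBE libraries it was 3.58% (2.18% to 5.82%), 4.20% (2.84% to 6.17%) and 3.11% (1.695% to 5.62%). The shares of the ΔrsCBE libraries lay within the range of the WT libraries, and their intervals overlapped those of all WT libraries. The balance of the B-type lamins was not tested between the genotypes. Wilson intervals and limits from a count of 0 cover no more than counting error, and the labels mention no molecular identifiers.

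Lmna (chromosome 3, 88480147 to 88509956, minus strand), which encodes lamins A and C, had 0 counts in each of the 6 libraries. Summed over the libraries, a count of 0 allows a level of up to 0.616 CPM. A count near 0 in this table need not mean a silent gene, because Gapdh and Ppia, which nearly all cells use, had 10 and 7 counts over the 6 libraries while Actb had 17251. No other gene of the RefSeq table overlaps Lmna.

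Lbr (chromosome 1, 181815335 to 181843046, minus strand) encodes an inner membrane protein that binds lamin B and is also a sterol reductase. It had 276, 275 and 272 CPM in the WT libraries and 218, 297 and 235 CPM in ΔrsCBE. WT libraries were again close together, at a chi-square per degree of freedom of 0.015, while ΔrsCBE libraries spread to both sides of them (6.17). The means were 274 ± 2.16 and 249.8 ± 41.4 CPM (SD, n = 3), at a fitted log2 fold change of -0.13, 95% interval -0.40 to 0.14 (edgeR adjusted p-value 0.816). The interval excludes a fall as large as the fitted difference of Lmnb1.

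Sun1 (chromosome 5, 139200637 to 139249840, plus strand) and Sun2 (chromosome 15, 79724070 to 79742536, minus strand) encode the inner membrane side of the bridge to the cytoskeleton. Sun1 had 40.6, 41.7 and 58.6 CPM in the WT libraries and 35.1, 51.7 and 51.8 CPM in ΔrsCBE. Sun2 had 199.6, 279.5 and 229.6 CPM in the WT libraries and 284, 177 and 219.8 CPM in ΔrsCBE. For both genes the libraries of the genotypes were interleaved.

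The fitted differences of the SUN genes lay near 0. The log2 fold change of Sun1 was -0.09 with a 95% interval from -0.57 to 0.40, and that of Sun2 was -0.05 with an interval from -0.38 to 0.28 (edgeR adjusted p-values 0.959 and 0.972). The sign turned when a library was left out: Sun1 was at 0.18 without WT replicate 3, and Sun2 at 0.12 without ΔrsCBE replicate 2 and at 0.07 without WT replicate 2. In ΔrsCBE the spread of Sun2 exceeded counting noise, with a chi-square per degree of freedom of 11.6. Replicate 1 was the highest of that genotype in Sun2, whereas it was intermediate in Tmpo and Lmnb1.

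Sun1 made up 16.9% (95% Wilson interval 11.7% to 23.7%), 13.0% (8.26% to 19.8%) and 20.3% (16.5% to 24.8%) of the reads of both SUN genes in the WT libraries. In the ΔrsCBE libraries its share was 10.98% (7.76% to 15.3%), 22.6% (17.6% to 28.6%) and 19.1% (14.4% to 24.8%). The interval of ΔrsCBE replicate 1 lay below that of replicate 2 and below that of WT replicate 3, and it overlapped those of the other libraries.

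**Figure D2:**
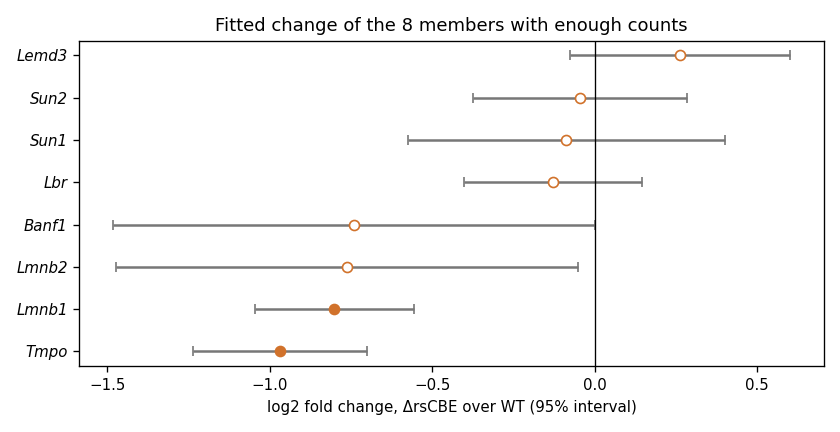
Log2 fold change of ΔrsCBE over WT (horizontal axis) for the 8 tested members, with 95% intervals from the edgeR fit; filled points have an adjusted p-value under 0.05. Tmpo (-0.97) and Lmnb1 (-0.80) have narrow intervals below 0, Lmnb2 and Banf1 have wide intervals that reach to about 0, and the intervals of Lbr, Sun1, Sun2 and Lemd3 include 0.

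Levels of different genes were compared per kilobase of merged exon length from GENCODE M21. On this scale Lmnb1 had the highest level of the members, at 285 CPM per kb in WT and 163 CPM per kb in ΔrsCBE. Lbr, Tmpo and Sun2 followed, with means over the 6 libraries of 55.0 ± 6.17, 48.9 ± 18.1 and 42.7 ± 7.95 CPM per kb (SD, n = 6), and their ranges overlapped. By merged exon length the order of Tmpo and Lbr turned with genotype. In WT Tmpo had 64.3 to 65.4 and Lbr 57.1 to 57.9 CPM per kb. In ΔrsCBE Tmpo had 26.8 to 41.8 and Lbr 45.8 to 62.3 CPM per kb. Within neither genotype did their libraries overlap, and Sun2, at 32.6 to 52.5 CPM per kb in ΔrsCBE, overlapped both there. Lemd3 had 24.5 ± 3.75 and Banf1 12.1 ± 5.04 CPM per kb, and their ranges, 19.9 to 30.7 and 8.20 to 20.6, overlapped slightly. Sun1, Lmnb2 and Emd were lowest, at 6.13 ± 1.16, 5.53 ± 2.55 and 4.91 ± 1.71 CPM per kb, and did not differ beyond their spread. The length used matters for Tmpo, whose merged exons, 10998 bases, far exceed its longest coding transcript of 3772 bases. Divided by the longest coding transcript, Tmpo had a mean level of 143 CPM per kb, above Lbr with 74.6 CPM per kb and below Lmnb1 with 233 CPM per kb. By that length Tmpo lay above Lbr in each library of both genotypes, so their order turned by merged exon length only.

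**Figure D3:**
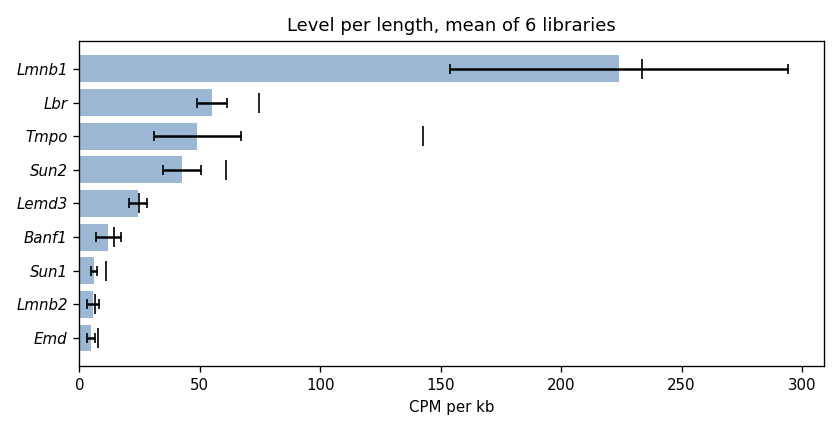
Mean level over the 6 libraries in CPM per kb of merged exon length (bars, horizontal axis, from 0) with the SD over libraries of both genotypes (whiskers), and the same mean per kb of the longest coding transcript (black ticks). Lmnb1 is highest by either length, and the tick of Tmpo, at 143, lies far above its bar at 48.9.

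Many genes of cell division, though not all, were also lower in ΔrsCBE. Of a list of 31 proliferation genes, 28 were tested and all 28 had log2 fold changes below 0, with a median of -1.05, and 18 passed the threshold in edgeR's test. Of all tested genes, 48.2% had log2 fold changes below 0 and 1.49% passed as lower. The list was chosen with earlier results of these data known, so its counts are a description. The 10 that did not pass included the replication helicase genes Mcm2 to Mcm7, Pcna, Ccnb2 and Cdk1. Of the tested genes of the list, Mcm2, Mcm4, Mcm5, Mcm6, Ccnb2 and Cdk1 overlapped between the groups. Mki67, a marker of cycling cells, had 3472, 3759 and 3476 CPM in the WT libraries and 1528, 2418 and 1521 CPM in ΔrsCBE. Top2a, the topoisomerase of dividing cells, had 983, 1229 and 1112 CPM against 415, 657 and 374 CPM. In both, as in Tmpo and Lmnb1, ΔrsCBE replicate 2 was the nearest to WT. The replication clamp gene Pcna, which did not pass (adjusted p-value by edgeR 0.667), had 40.6, 44.1 and 41.2 CPM in the WT libraries and 30.3, 38.2 and 26.5 CPM in ΔrsCBE. Ccna2, a cyclin of S phase and mitosis, had 185, 218 and 207 CPM against 75.0, 99.2 and 82.1 CPM.

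The summed CPM of the proliferation list stood at 44.7%, 65.4% and 40.8% of the WT mean in ΔrsCBE replicates 1 to 3. Tmpo stood at 47.0%, 64.5% and 41.3% and Lmnb1 at 57.9%, 67.1% and 46.7% of their WT means in the same libraries. All of these were highest in replicate 2 and lowest in replicate 3. Mki67 and Top2a made up 52.8% to 57.7% of the sum, and without them, a choice made after seeing the data, it stood at 48.8%, 65.0% and 41.2% of the WT mean. Single genes of the list differed in order: Bub1, a mitotic checkpoint kinase, was lowest in replicate 2. The part of these genes in the difference of Tmpo and Lmnb1 was not tested. The count of proliferation genes past the threshold was 10 without WT replicate 3 and also 10 without ΔrsCBE replicate 3, and the calls of Tmpo and Lmnb1 held without either.

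**Figure D4:**
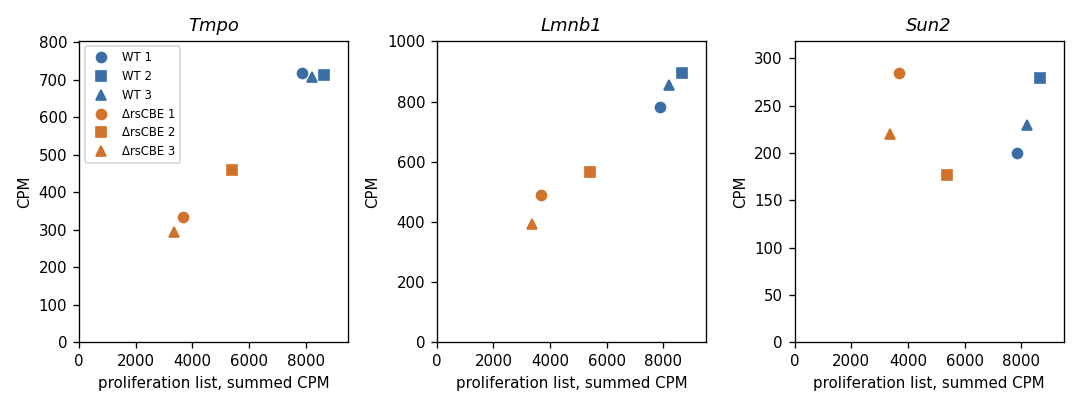
CPM of Tmpo, Lmnb1 and Sun2 (vertical axes) against the summed CPM of 31 proliferation genes (horizontal axis), 1 point per library, WT in blue and ΔrsCBE in orange. In Tmpo and Lmnb1 the ΔrsCBE libraries lie low on both axes with replicate 2 nearest to WT, whereas Sun2 has its highest and its lowest value among ΔrsCBE libraries.

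The 5 tested genes most like Tmpo by Pearson correlation of log2 CPM over the 6 libraries were Tubb4b (0.997), Cdca2 (0.996), D6Wsu163e (0.994), Dnajc9 (0.994) and Cenpf (0.994), out of 7791 ranked. Tubb4b is a beta-tubulin, Cdca2 brings a phosphatase to chromatin at the end of mitosis and Cenpf is a kinetochore protein. The likeness includes the difference between the genotypes: their log2 fold changes were -1.23, -1.45, -1.05, -0.79 and -1.34, all past the threshold except that of D6Wsu163e (edgeR adjusted p-value 0.140). After subtraction of the genotype means the nearest genes were Smc2 (0.995), a condensin subunit, followed by Cdca2 (0.994), Gm18541 (0.992), Anapc7 (0.990) and Nde1 (0.987). Cdca2 was thus near Tmpo by both measures. Among the members, Lmnb1 and Lbr had correlations with Tmpo of 0.87 and 0.87 by the second measure, Lmnb2 0.53, Sun1 0.15, Banf1 0.12, Sun2 -0.54 and Lemd3 -0.59. Tmpo hardly varied among the WT libraries (coefficient of variation 0.812%, against 23.8% in ΔrsCBE), so the second measure rests mainly on the 3 ΔrsCBE libraries. All these values share libraries and scaling and are a description.

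Other genes of the nuclear envelope had log2 fold changes on both sides of 0. Of 75 listed genes, 61 were tested and 1, Cbx5, had an adjusted p-value under 0.05, beside 1.69% of all tested genes. The median log2 fold change of the 61 was -0.03, with 32 below and 29 above 0. The groups did not overlap in 12 genes with lower and 1 (Aaas, a pore gene named after its values were seen) with higher values in ΔrsCBE, against 8.92% and 7.23% of all tested genes.

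Cbx5 encodes heterochromatin protein 1 alpha, a partner of Lbr that binds methylated histone H3. It had 187, 233 and 202 CPM in the WT libraries and 113, 129 and 69.5 CPM in ΔrsCBE, with no overlap. The means were 207 ± 23.6 and 104 ± 30.8 CPM (SD, n = 3), for a log2 fold change of -0.97 (SE 0.18, adjusted p-value by edgeR 0.00216). It did not pass with a covariate for libraries with Xist counts (-0.86, edgeR adjusted p-value 0.0927), where the genotype effect rests on ΔrsCBE replicate 1. Without the ΔrsCBE libraries with Xist counts, a fit that rests on the same library, the log2 fold change of Cbx5 was also -0.86. Of the other 8 tested chromatin partners of the lamina, 0 passed, and the most counted, the nuclear matrix-associated factor Bclaf1, had 364 ± 7.24 and 393 ± 19.1 CPM (SD, n = 3).

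Among 7 tested nesprin and torsin genes, which complete or regulate the bridge that SUN proteins begin, 0 passed the threshold and 6 had log2 fold changes above 0. The giant nesprin gene Syne2 had 394 ± 31.7 CPM in the WT libraries and 469 ± 89.1 CPM in ΔrsCBE, and Tor1aip1, a torsin activator of the inner membrane, 185 ± 7.98 and 204 ± 22.1 CPM (SD, n = 3). Of 8 other inner membrane genes 0 passed, with Ankle2, which helps Banf1 return to chromatin after mitosis, at 204 ± 34.5 and 241 ± 9.49 CPM and Lemd2 at 41.2 ± 2.72 and 38.4 ± 7.61 CPM (SD, n = 3). Of 4 tested lamin-processing enzymes 0 passed. The protease Zmpste24, which matures prelamin A, had 57.3 ± 13.7 and 62.7 ± 13.9 CPM, and the methyltransferase Icmt 45.6 ± 12.6 and 44.4 ± 8.81 CPM (SD, n = 3).

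The nuclear pore was represented by 25 tested genes, of which 0 passed the threshold. An unadjusted p-value by edgeR under 0.05 was found for 1 of them (Nup205, of the inner ring), and for 798 of all 7792 tested genes. Log2 fold changes were below 0 for 16 pore genes, with a median of -0.13. The groups did not overlap in 8 pore genes with lower and 1 with higher values in ΔrsCBE, against 8.92% and 7.23% of all tested genes. Nup205, named after its values were seen, had 107 ± 8.82 and 75.9 ± 7.12 CPM (SD, n = 3; edgeR adjusted p-value 0.170). The most counted were Ranbp2, on the cytoplasmic face of the pore, with 599.6 ± 26.9 and 518 ± 30.2 CPM, and Tpr, of the nuclear basket, with 507 ± 60.4 and 553 ± 127 CPM (SD, n = 3). Of 8 genes that reseal the envelope after mitosis 0 passed, with Ist1 at 161 ± 22.3 and 165 ± 13.1 CPM and the microtubule-severing gene Spast at 126 ± 10.05 and 107 ± 7.87 CPM (SD, n = 3). In the DESeq2 Wald test, too, Cbx5 was the 1 gene called of these lists.

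**Figure D5:**
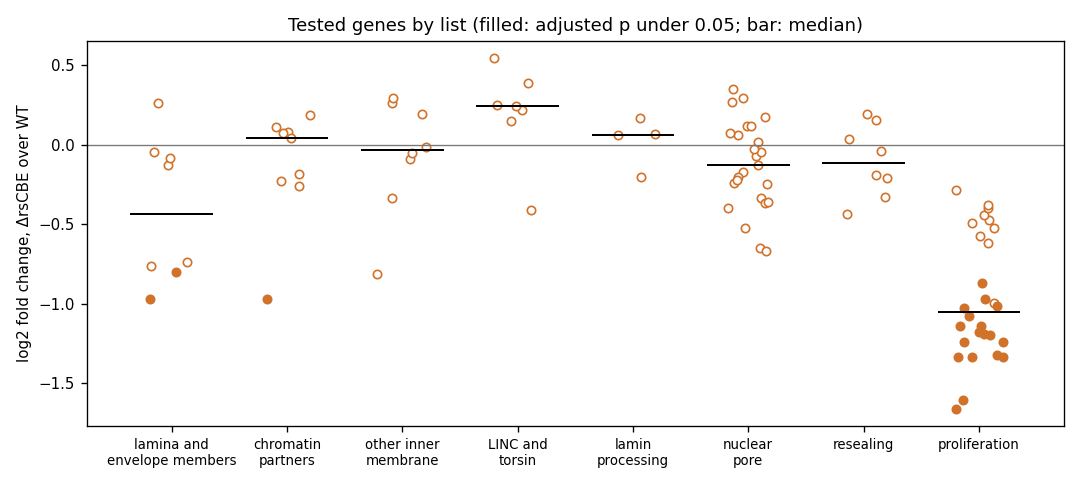
Log2 fold change of ΔrsCBE over WT (vertical axis) for each tested gene of the members, of 6 lists of other envelope genes and of the proliferation list, with medians as bars; filled points have an adjusted p-value under 0.05. Filled points are Tmpo and Lmnb1 among the members, Cbx5 among the chromatin partners, and 18 of the 28 proliferation genes.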

How the data were processed

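RNA of 6 libraries was measured, 3 per genotype, grouped by the sample titles. The authors deposited 1 raw count per gene symbol and library, not normalized. Per the submitters' processing notes, Trim Galore 0.6.10, STAR 2.7.11, HTSeq, DESeq2 and the build mm10 were used; the annotation and the strand setting are not given in the sources used here.

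Genes were kept by filterByExpr (minimum count 10), leaving 7792 genes with 97.3% to 97.5% of the counts. They were tested with edgeR 4.0.16 in R 4.3.3 (TMM, glmQLFit with robust estimation, glmQLFTest, genotype as the sole factor, Benjamini-Hochberg adjustment over all tested genes, threshold 0.05), and the code was tested on simulated data. CPM values use the TMM-scaled totals of the tested genes, and log2 CPM a prior count of 2. Standard errors come from the F statistic. Of the 10 members all matched the table; Emd and Lmna failed the filter. Two-sided tests were used throughout.

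One marker gene is not reported here. Members and lists were chosen with earlier results of these data known. The text names all members, the called and the 2 most counted genes of each list, 4 proliferation genes and the 5 genes most like Tmpo. Alternatives covered scaling, test (DESeq2 1.42.0), filter, threshold, left-out libraries, a replicate block and a covariate for libraries with over 100 Xist counts.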

Additional observations from a re-analysis of the deposited data

How the results depend on the processing

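The members past the threshold were Tmpo and Lmnb1 in each of 15 alternatives in scaling, test, filter, threshold, libraries and design. In the 14 that refit the data they had log2 fold changes from -1.18 to -0.84 and from -0.93 to -0.68. Banf1, Lbr, Lemd3 and Lmnb2 kept their direction in these 14. With the Xist covariate, and without the ΔrsCBE libraries with Xist counts, the genotype difference rests on ΔrsCBE replicate 1 alone (in the second fit the spread comes from WT, and that library is assumed to vary alike), so these fits say nothing of the stability of a call across ΔrsCBE libraries. The log2 fold change of Sun2 was 0.29 with the Xist covariate and 0.29 without the ΔrsCBE libraries with Xist counts, and it ranged from -0.24 to 0.12 when a library was left out, against -0.05 in the reported fit. That of Sun1 ranged from -0.19 to 0.18 when a library was left out and was -0.49 in both Xist fits, against -0.09.

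With the Xist covariate, 87 genes of the whole table were past the threshold against 132, 0 of the envelope list against 1, and 10 of the proliferation list against 18; the cause was not tested. When a library was left out, the count was 59 to 187 over all genes, 2 in each case among the members, 1 in each case in the envelope list and 10 to 21 in the proliferation list. The lowest counts, 59 and 10, came both without WT replicate 3 and without ΔrsCBE replicate 3.

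Libraries with the same replicate number did not deviate together (correlations from 0.00908 to 0.0197, and from -0.0472 to 0.0345 for other pairs), so the numbers were not taken as pairs. With the replicate block, 136 genes passed in all, 2 members, 1 envelope gene and 18 proliferation genes. Counts were low for Emd, Banf1 and Lmnb2, at 66, 90 and 127 over the 6 libraries; the part of depth in their results was not tested. Emd was tested in 7 of the alternatives alone, at log2 fold changes from -0.38 to -0.03 and adjusted p-values of at least 0.882.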
